A study of Mus musculus with 2 samples.

Results

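The genes described here are the R-spondin ligands Rspo1, Rspo2 and Rspo3, the receptors Lgr4, Lgr5 and Lgr6, and the transmembrane ubiquitin ligases Znrf3 and Rnf43. They were found by gene symbol and are 8 of the 32285 genes listed in the count matrices. Single-nucleus RNA sequencing (snRNA-seq) was carried out on mouse kidneys at embryonic (E18.5) and postnatal (P3) days, with 1 library per age, each made from pooled kidneys of males and females. The E18.5 kidneys carried floxed alleles of both Myc genes without a recombinase, labelled Mycf/f;Mycnf/f (no Cre), on a mixed strain background. The P3 kidneys were labelled Wild type on C57BL/6J, whereas the methods of the study name a mixed background at each age. The matrix headers also name different Cell Ranger releases, 7.0.0 for the E18.5 matrix and 5.0.1 for that of P3, and the later of these counts intronic reads by default, whereas the setting used is not given in the sources used here. Age, genotype, background, library and counting release change together and cannot be told apart. Nuclei of 1 library are not replicates, so no test between the ages was made, and each interval below is a 95% interval that covers counting error only.

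R-spondins are secreted proteins that strengthen Wnt signaling without activating it on their own. Znrf3 and Rnf43 are membrane-bound ubiquitin ligases that remove Frizzled receptors, the receptors for Wnt proteins, from the cell surface. An R-spondin that binds an Lgr receptor and one of these ligases together clears the ligase, so that more Frizzled remains and the cell responds more strongly to Wnt. In the developing kidney, Wnt signals from the ureteric bud drive nephron progenitors in the surrounding cap to form new nephrons, and the interstitial stroma is patterned by Wnt as well.

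All members are protein-coding genes of the mouse genome build GRCm38 (mm10), and their spans are those of GENCODE M21. The ligand genes are Rspo1 (chr4:124986430-125009099, plus strand), Rspo2 (chr15:43020794-43170826, minus strand) and Rspo3 (chr10:29452416-29535867, minus strand). The receptor genes are Lgr4 (chr2:109917647-110014257, plus strand), Lgr5 (chr10:115450311-115587780, minus strand) and Lgr6 (chr1:134983301-135105276, minus strand). Znrf3 lies at chr11:5276324-5444847 on the minus strand and Rnf43 at chr11:87662722-87735539 on the plus strand. Rspo3 and Rnf43 share part of their span with another gene on the same strand, Gm20276 and 1110028F11Rik. How the overlap affects their counts was not tested. A RefSeq start window was found for 4 members, and the 250 bases before the start are shown for 1 ligand, 1 receptor and 1 ligase whose levels the results turn on, on the plus strand of GRCm38.p6 (Rspo1 at chr4:124986180-124986429, Lgr4 at chr2:109917397-109917646, and the start of Rnf43 that lies outside its own exons at chr11:87699647-87699896):
Rspo1: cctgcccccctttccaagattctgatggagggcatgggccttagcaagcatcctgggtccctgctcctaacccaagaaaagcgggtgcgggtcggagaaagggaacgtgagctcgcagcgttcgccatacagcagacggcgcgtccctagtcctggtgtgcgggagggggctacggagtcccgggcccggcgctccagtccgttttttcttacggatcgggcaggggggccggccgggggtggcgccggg
Lgr4: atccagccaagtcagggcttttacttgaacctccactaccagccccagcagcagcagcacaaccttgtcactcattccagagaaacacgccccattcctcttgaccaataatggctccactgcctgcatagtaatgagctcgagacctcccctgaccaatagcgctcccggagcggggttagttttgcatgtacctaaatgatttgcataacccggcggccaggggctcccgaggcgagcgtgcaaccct
Rnf43: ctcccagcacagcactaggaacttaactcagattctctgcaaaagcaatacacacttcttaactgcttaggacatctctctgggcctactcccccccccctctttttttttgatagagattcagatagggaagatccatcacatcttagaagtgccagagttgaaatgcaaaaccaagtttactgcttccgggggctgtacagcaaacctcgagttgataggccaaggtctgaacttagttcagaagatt
The sequences are in lower case throughout, since no part is singled out. The letters CTTTGAT, a core of the sites that Tcf/Lef factors bind, were searched on both strands and occurred in 0 of the 5 windows of the members, counting Lgr6 and both Rnf43 starts, against 1053 of 32851 windows in the genome (3.21%). The base composition of the windows differed, with 66.8% G and C for Rspo1, 55.6% for Lgr4 and 45.2% for Rnf43, beside a median of 52.4% over all windows.

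After quality filtering, 21270 nuclei with 77321253 unique molecular identifiers (UMIs, each standing for 1 captured RNA molecule) remained at E18.5 and 11765 nuclei with 70055219 UMIs at P3. The median was 3132.5 UMIs per nucleus at E18.5 and 4534 at P3, and 69 cell barcodes occurred in both libraries. Nuclei were grouped without the 8 members and 74 other Wnt pathway genes, and clusters were named by marker genes outside the list with the ending -like. Clusters made mostly of called doublets or of low-RNA nuclei were not compared; they held 30.4% of the nuclei at E18.5 and 28.4% at P3. This left 18 units of nuclei at E18.5 (17 named types and cluster 10) and 20 at P3 (16 named types and clusters 11, 20, 21 and 23), of which 16 names occur at both ages. The clusters not compared held from 30.6% (Rspo2) to 38.4% (Lgr5) of the UMIs of a member at E18.5. At P3 they held from 17.6% (Rspo2) to 45.5% (Lgr5), with 41.3% for Rnf43. Those UMIs lie outside every unit, but sums over all nuclei and levels of all other nuclei include them. Markers of nephron, ureteric, stromal, endothelial and leukocyte types were found at both ages, as the kidney label implies. Levels are the UMIs of a gene divided by all UMIs of the nuclei summed and scaled to a total of 1000000 (CPM). Leukocyte-like nuclei (160 at E18.5 with a median of 2300.5 UMIs, and 198 at P3 with a median of 2557) served as the reference for free RNA, because RNA from lysed cells reaches every droplet, and a share of nuclei with a UMI at or below theirs is read as background. The P3 reference includes a cluster of 72 nuclei with 23.6% called doublets, which held 11 of its 16 UMIs of Rnf43. How far doublets add to the P3 reference was not tested. The reference is also no floor, since larger units lay under it at P3. Rspo1 was 8.92 CPM (5 UMIs) in the reference, against 1.43 CPM in proximal tubule-like and 0.329 CPM in endothelium-like nuclei. Znrf3 was 228 CPM in it, against 172 CPM in endothelium-like nuclei. A value at or below the reference is therefore not separable from it, but is not shown to be free RNA.

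Over all nuclei, Rspo1 and Lgr5 were lower at P3 than at E18.5, Rnf43 was higher, and the remaining members differed by less than 1.5-fold or were too scarce to compare. With each shared unit weighed equally, Lgr5 was 0.715 and no longer past 1.5-fold, and Rspo3 was 0.309. That alternative uses only names found at both ages. It leaves out the units where Rspo3 was highest, E18.5 nephrogenic zone stroma-like nuclei and P3 clusters 11 and 21. Rspo1 stood at 29.1 CPM (2251 UMIs) at E18.5 and 9.71 CPM (680 UMIs) at P3, a ratio of 0.333 (0.306 to 0.363). Lgr5 went from 40.3 CPM (3119 UMIs) to 22.6 CPM (1580 UMIs), a ratio of 0.559 (0.526 to 0.594). Rnf43 went from 32.1 CPM (2483 UMIs) to 52.4 CPM (3671 UMIs), a ratio of 1.63 (1.55 to 1.72). Of the 7 members with at least 1 CPM in the pooled libraries, 1 was higher at P3 past 1.5-fold and 2 were lower. Among all 16973 genes of that level, 10.2% were higher and 22.1% lower past the same fold, with a median log2 ratio of −0.12, so the counts of members lie near those of the genome at large. Scaling the libraries by the trimmed mean of M-values (TMM) in place of total UMIs changed these shares to 13.4% and 17.6% and left the same counts of members.

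The other members lay within 1.5-fold. Rspo3 had a ratio of 0.699 (0.663 to 0.736), from 47.2 to 33.0 CPM. Lgr4 and Znrf3 were slightly higher at P3, with ratios of 1.10 (1.08 to 1.12) and 1.22 (1.20 to 1.25). Lgr6, at 1.88 and 2.34 CPM, had a ratio of 1.25 whose interval of 0.992 to 1.57 includes 1. Rspo2 was nearly absent, with 36 UMIs in 28 nuclei at E18.5 and 17 UMIs in 13 nuclei at P3. In these sums over all nuclei, fewer nuclei of a type and fewer molecules per nucleus cannot be told apart, and the levels within units below separate them only as far as the clusters of the ages match.

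The 3 ligands were highest in different units, except that Rspo1 and Rspo2 shared a small interstitial cluster at E18.5 and Rspo1 and Rspo3 shared the nephron progenitors. Rspo1 was highest in nephron progenitor-like nuclei, the cells that form new nephrons, at 94.9 CPM (88.3 to 102; 780 UMIs in 2397 nuclei) at E18.5 and 51.0 CPM (43.2 to 59.7; 154 UMIs in 586 nuclei) at P3. These levels were 4.46 times (4.08 to 4.86) and 6.50 times (5.39 to 7.79) those of all other nuclei. Early nephron-like nuclei followed with 42.9 CPM at E18.5 and 39.1 CPM at P3, where the step down from progenitors was small (ratio 1.30, 1.03 to 1.64). A UMI of Rspo1 was found in 25.8% of progenitor-like nuclei at E18.5 (8.91% after thinning every nucleus to 1000 UMIs) and in 123 of 586 at P3 (4.61% after thinning). In leukocyte-like nuclei the shares were 2.50% (0.629% thinned) and 2.02% (1.03% thinned). In the other 15 units Rspo1 lay between 4.12 and 17.8 CPM at E18.5, around the 10.5 CPM (4 UMIs) of the leukocyte-like nuclei. Some of their shares exceeded the leukocyte-like share, such as 5.23% in podocyte-like and 4.91% in distal nephron precursor-like nuclei. Those nuclei were also deeper, with medians of 2951 and 3086.5 UMIs against 2300.5. These levels are near the reference, and whether they are background was not tested.

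A further site at E18.5 was a small interstitium-like cluster of 158 nuclei led by Ebf2, Sntg1 and Col6a6, in which Rspo1 reached 78.2 CPM (57.2 to 104), with 46 UMIs in 25 nuclei. That level was not separable from the progenitor level. The P3 cluster of the same name, 60 nuclei that share Ebf2, Sntg1 and Meg3 among their leading genes but also include Pparg and Plin1, genes of fat cells, held 1 UMI of Rspo1 (3.16 CPM). The same clusters held the highest Rspo2, at 13.6 CPM at E18.5 (8 UMIs in 5 nuclei) and 15.8 CPM at P3 (5 UMIs in 1 nucleus). Rspo2 was at 0 in 11 of 18 units at E18.5 and in 12 of 20 at P3, and each 0 allows up to 3 UMIs of the unit (7.88 CPM in the leukocyte-like nuclei at E18.5).

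Rspo3 was high in some stromal clusters and low in others. At E18.5 it was highest in nephrogenic zone stroma-like nuclei, the interstitial cells around the progenitor caps, at 235 CPM (220 to 252; 866 UMIs in 1198 nuclei), 6.22 times (5.76 to 6.72) the level in all other nuclei. Medullary stroma-like nuclei followed at 104 CPM, nephron progenitor-like nuclei at 77.7 CPM (71.8 to 84.0), mural-like nuclei at 74.1 CPM and endothelium-like nuclei at 46.7 CPM. The first of these steps exceeded counting error (ratio 2.27, 1.97 to 2.62), as did the step from medullary stroma to progenitors (1.34, 1.15 to 1.55), whereas progenitors and mural-like nuclei did not differ beyond it. The largest stromal cluster, cluster 10 with 2977 nuclei, was lower, at 28.1 CPM (24.8 to 31.8, from 257 UMIs), and interstitium-like nuclei stood at 35.7 CPM. In cluster 10, 7 of 8 interstitium markers were raised. It stayed unnamed because the only marker among its 10 leading genes was Zfp536, of the medullary stroma class. Leukocyte-like nuclei held 0 UMIs at E18.5, where the floor of 3 UMIs corresponds to 7.88 CPM.

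At P3 the highest Rspo3 levels were in clusters that the markers left unnamed. Cluster 21, 115 nuclei with Syndig1 and Apcdd1 among their leading genes, stood at 325 CPM (286 to 367; 256 UMIs in 65 nuclei, of which 45 came from 1 nucleus). Cluster 11, 672 nuclei led by Il1rapl2, Gria1 and Dgki beside Rspo3 itself, stood at 274 CPM (256 to 294; 788 UMIs), 12.1 times (11.1 to 13.2) all other nuclei. Both lay above cluster 23 at 47.0 CPM, endothelium-like nuclei at 26.7 CPM and nephron progenitor-like nuclei at 22.2 CPM. Medullary stroma-like and interstitium-like nuclei came after these, at 18.8 and 9.48 CPM, and from endothelium-like nuclei downwards no neighbours in the order differed beyond counting error. Cluster 11 shared 4 leading genes (Aox3, Gria1, Il1rapl2 and Ntng1) with the E18.5 nephrogenic zone stroma-like cluster, and Rspo3 in this pair differed little between the ages (ratio 1.17, 1.06 to 1.29). The summed nephrogenic zone stroma markers were nonetheless 1240 CPM in the E18.5 cluster and 363 CPM in cluster 11, with Ntn1 as the leading marker in each.

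Both of 2 P3 clusters shared leading genes with the E18.5 medullary stroma-like cluster, and they differed in Rspo3. Cluster 21, in which fewer than 3 markers of any class were raised, shared the leading genes Adamts17 and Kcnd2 with it, and its Rspo3 was 3.13 times (2.62 to 3.74) as high. The P3 cluster that carries the medullary stroma-like name, 1676 nuclei led by Zfp536 and Synpo2, shared Kcnip1 and Lrriq1 with the same E18.5 cluster and had 18.8 CPM, 0.181 times (0.147 to 0.221) the E18.5 level. The age ratio of Rspo3 for this E18.5 cluster depended on which P3 cluster was set beside it. The P3 medullary stroma-like cluster likewise had another E18.5 partner. It shared Zfp536 and Synpo2 with E18.5 cluster 10, where Rspo3 was 28.1 CPM and so much nearer its 18.8 CPM. The share of nuclei with a UMI of Rspo3 was 31.4% in nephrogenic zone stroma-like nuclei at E18.5 (17.9% thinned), and 39.4% in cluster 11 (21.3% thinned) and 56.5% in cluster 21 (18.3% thinned) at P3, against 0% and 1.52% in leukocyte-like nuclei (0% and 0.513% thinned). Cluster 21 was the deepest of these, with a median of 5987 UMIs per nucleus against 3789 in cluster 11.

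In nephron progenitor-like nuclei Rspo3 went from 77.7 to 22.2 CPM (639 and 67 UMIs), a ratio of 0.285 (0.218 to 0.367), next to 0.537 (0.449 to 0.640) for Rspo1 in the same nuclei. Of the 8 progenitor markers, Six2, Eya1 and Uncx were raised at both ages, Crym and Itga8 only at E18.5 and Tmem100 only at P3. Wnt4 differed between these clusters. It was 367 CPM at P3, the highest of any unit, and at E18.5 it lay below the 113 CPM of early nephron-like nuclei. Whether the clusters of the ages hold progenitors of like state was not tested, so the ratios may not set like against like. The 5 nephrogenic zone stroma markers summed to 128 and 95.3 CPM in these progenitor clusters, of which Gdnf, a gene that progenitors express as well, gave 64.1 and 50.3 CPM. The 8 interstitium markers summed to 1296 and 1356 CPM there, against 4132 CPM in the E18.5 nephrogenic zone stroma-like cluster and 749 CPM in proximal tubule-like, 838 CPM in collecting duct-like and 1024 CPM in early nephron-like nuclei at E18.5. Of the progenitor sums Meis1 gave 467 CPM at E18.5 and 830 CPM at P3, and without it they were 829 and 526 CPM. Called doublets were 4.17% and 2.05% of the progenitor-like nuclei. How far stromal RNA in these droplets adds to the Rspo3 values was not tested.

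Endothelium-like nuclei held Rspo3 at 46.7 CPM at E18.5 and 26.7 CPM at P3. At P3 a cluster of 61 endothelium-like nuclei led by Sox17, Lama3 and Vegfc stood at 91.4 CPM, but 16 of its 21 UMIs came from 1 nucleus. The other endothelium-like cluster, led by Flt1 and Tek, had 21.4 CPM (16.3 to 27.5) from 60 UMIs in 46 nuclei.

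**Figure D1:**
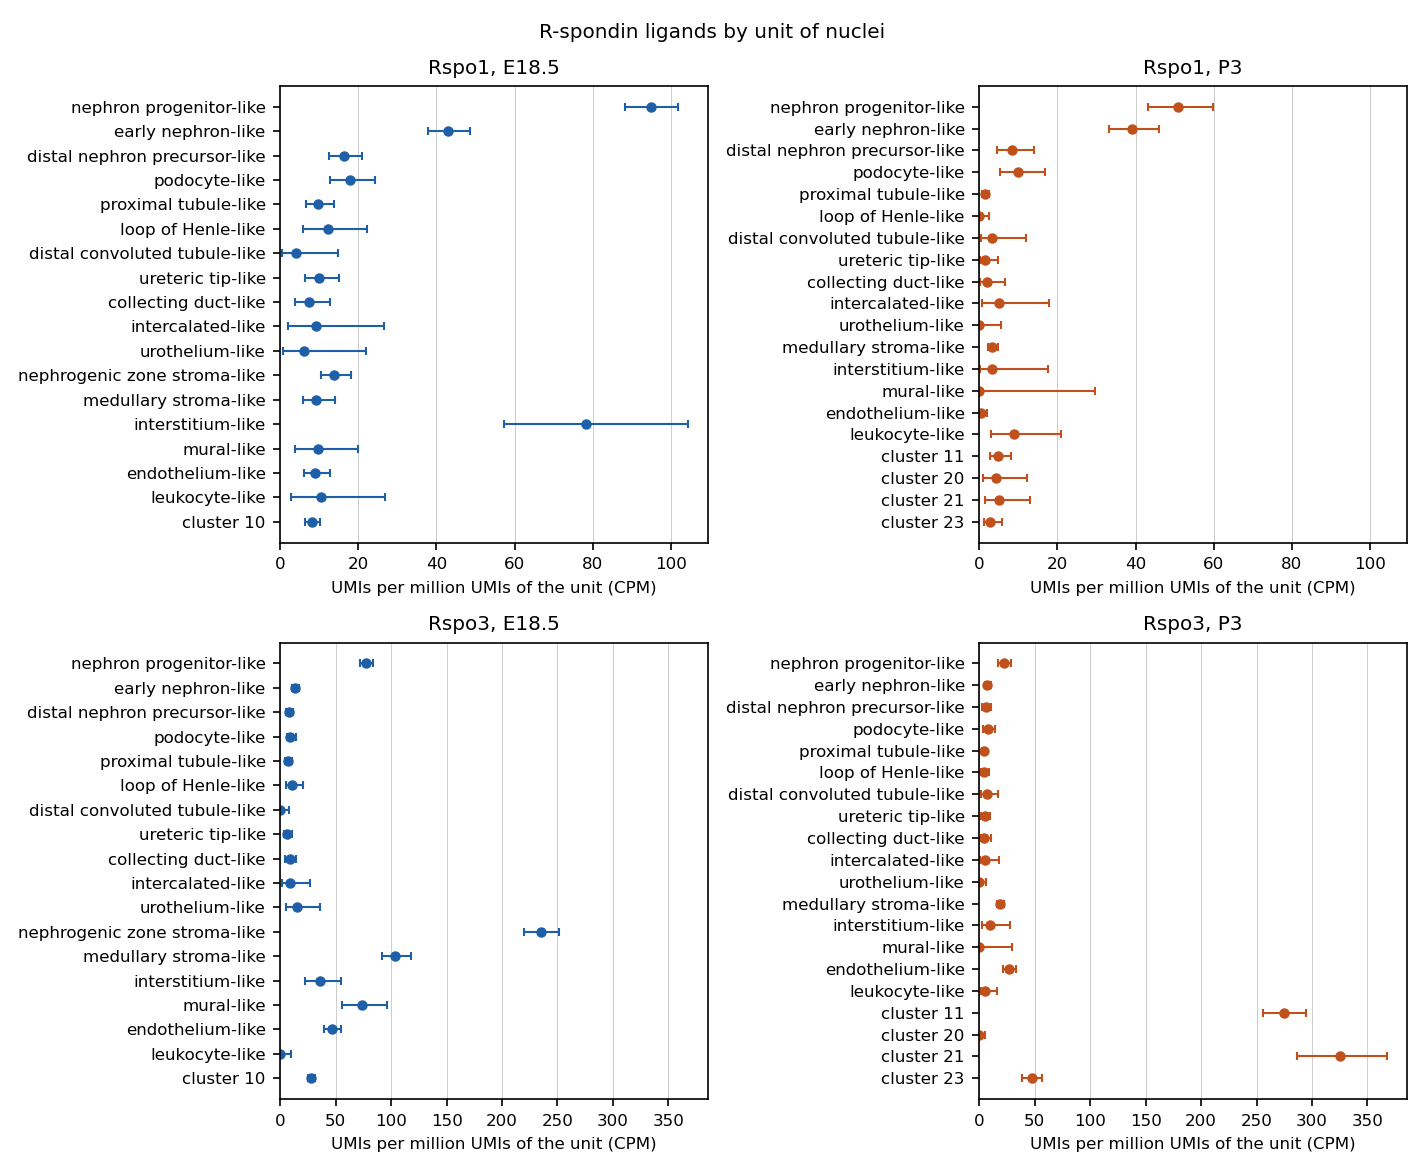
Levels of Rspo1 (upper panels) and Rspo3 (lower panels) in each unit of nuclei at E18.5 (left) and P3 (right), in CPM; points are the unit's summed level and bars the 95% counting interval. Rspo1 peaked in nephron progenitor-like nuclei at 94.9 and 51.0 CPM, and Rspo3 in nephrogenic zone stroma-like nuclei at 235 CPM at E18.5 and in clusters 21 and 11 at 325 and 274 CPM at P3.

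Among the receptors, Lgr4 was present in every unit and was high in some early nephron-like clusters and in podocyte-like and proximal tubule-like nuclei. Lgr5 was concentrated in distal nephron precursors and ureteric tips, and Lgr6 was scarce. At E18.5 Lgr4 was 857 CPM (834 to 881; 5012 UMIs) in early nephron-like nuclei. The name stands for the stage between the first epithelial vesicle and the patterned nephron, but only 4 of its 8 markers were raised there. Lgr4 was 689 CPM in podocyte-like nuclei, the filtering cells of the glomerulus, 618 CPM in proximal tubule-like nuclei and 427 CPM in distal nephron precursor-like nuclei, and each of these steps exceeded counting error. The other 14 units ranged from 78.8 CPM in leukocyte-like nuclei to 327 CPM in nuclei resembling the loop of Henle, and the lowest of them are not separable from background. At P3 podocyte-like and early nephron-like nuclei stood at 835 and 808 CPM and did not differ beyond counting error, followed by distal nephron precursor-like nuclei at 684 CPM and proximal tubule-like nuclei at 507 CPM.

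The early nephron-like name covered unlike clusters at P3. In the 234 nuclei with Grid1 and Stxbp5l among their leading genes, which share 5 leading genes with the E18.5 early nephron-like cluster, Lgr4 was 1732 CPM (2211 UMIs), 2.02 times (1.92 to 2.13) the E18.5 level. Of the 8 early nephron markers, 3 were raised there. In the 402 nuclei led by Rmst, Lhx1 and Uncx, with all 8 markers raised, Lgr4 was 342 CPM (320 to 366), under the 379 CPM of all P3 nuclei. A UMI of Lgr4 was found in 76.1% of early nephron-like nuclei at E18.5 (47.6% thinned) and in 90.5% of podocyte-like nuclei at P3 (52.0% thinned), against 17.5% and 21.2% of leukocyte-like nuclei (8.18% and 10.8% thinned).

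Lgr5 was concentrated in few units at E18.5. Distal nephron precursor-like nuclei, marked by Sim2, Tfap2b and Pou3f3, stood at 276 CPM (260 to 293; 1082 UMIs in 1162 nuclei), 9.93 times (9.22 to 10.7) all other nuclei. Ureteric tip-like nuclei, the branching ends of the ureteric bud, followed at 113 CPM (99.1 to 128), and early nephron-like and loop of Henle-like nuclei at 47.0 and 46.1 CPM. The steps from precursors to tip (ratio 2.45, 2.13 to 2.82) and from tip to early nephrons (2.40, 2.01 to 2.85) exceeded counting error, while the next did not. No Lgr5 UMI was found in the 160 leukocyte-like nuclei.

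At P3 distal nephron precursor-like nuclei still stood first, at 135 CPM (118 to 154), level with cluster 20 at 132 CPM (107 to 162), 138 nuclei with 5 of 6 distal convoluted tubule markers raised and led by Plppr1, Scnn1b and Scnn1g, the last 2 being subunits of the epithelial sodium channel. The ureteric tip-like level was 75.4 CPM, and those of early nephron-like and collecting duct-like nuclei were 49.9 and 37.9 CPM. Of the 2 P3 clusters named distal nephron precursor-like, the one led by Sim2, Nrcam and Tfap2b had 189 CPM of Lgr5 (206 UMIs in 50 of 189 nuclei), and the one led by Sgcz, Ranbp3l and Prox1 had 14.3 CPM (7 UMIs). The Sim2 cluster shared 5 leading genes with its E18.5 counterpart, and between these matched clusters the ratio was 0.686 (0.588 to 0.797), nearer 1 than the 0.490 (0.421 to 0.568) of the whole name. In the ureteric tip the ratio was 0.669 (0.530 to 0.839). Lgr5 was detected in 34.0% of distal nephron precursor-like nuclei at E18.5 (18.1% thinned) and 19.0% at P3 (7.96% thinned), against 0% and 3.03% of leukocyte-like nuclei (0% and 2.56% thinned).

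Other sites of Lgr5 rested on few nuclei. In the Sox17 endothelium-like cluster at P3, Lgr5 was 113 CPM, but its 26 UMIs lay in 5 nuclei, with 14 in 1 of them, and the Flt1 endothelium-like cluster had 7.84 CPM. The distal nephron precursor markers summed to 7308 CPM in the Sox17 cluster, of which Mecom, a gene that arterial endothelium also expresses, gave 7247 CPM; without Mecom they summed to 60.9 CPM, against 39.6 CPM in the Flt1 cluster.

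Lgr6 totalled 145 UMIs at E18.5 and 164 at P3. At E18.5 it was highest in nephron progenitor-like nuclei at 5.60 CPM (4.10 to 7.46; 46 UMIs in 35 nuclei), and 10 of 18 units held none. At P3 the highest level rested on 7 UMIs in 4 interstitium-like nuclei (22.1 CPM, 8.89 to 45.6). Early nephron-like nuclei had 11.6 CPM (8.39 to 15.5; 44 UMIs in 28 nuclei), nearly all in the cluster led by Rmst, Lhx1 and Uncx (16.2 CPM) and not in the one that matches the E18.5 early nephrons (2.35 CPM, 3 UMIs). Leukocyte-like nuclei contained 1 UMI at E18.5 and 3 UMIs at P3, so the detection of Lgr6 in 1.46% of progenitor-like nuclei at E18.5 (0.418% thinned) and 4.40% of early nephron-like nuclei at P3 (0.943% thinned) compares with leukocyte-like shares of 0.625% and 1.52% (0.629% and 0.513% thinned), whose intervals overlap these.

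**Figure D2:**
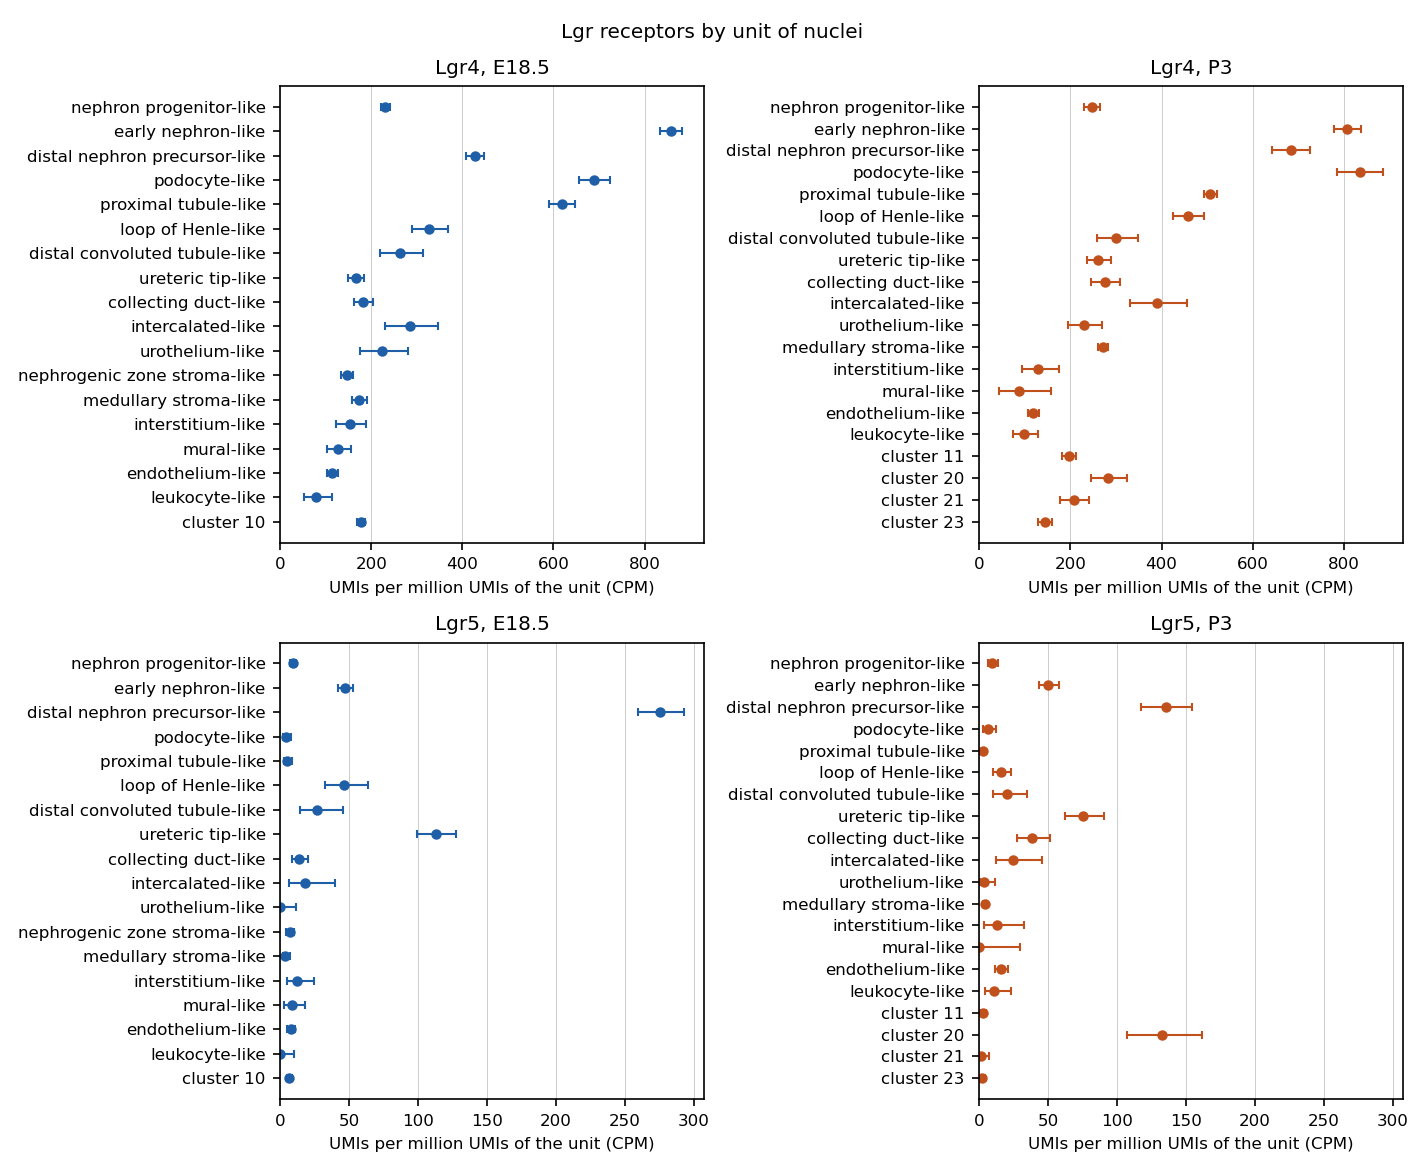
Levels of Lgr4 (upper panels) and Lgr5 (lower panels) in each unit at E18.5 (left) and P3 (right), in CPM, with 95% counting intervals as bars. Lgr4 was found in every unit, with its highest levels at 857 CPM in early nephron-like nuclei at E18.5 and 835 CPM in podocyte-like nuclei at P3, and Lgr5 peaked in distal nephron precursor-like nuclei at 276 and 135 CPM.

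The ligases differed in breadth. Znrf3 was found in every unit, with its highest levels in ureteric units and some nephron units, nephron progenitors among them. Rnf43 was concentrated in the ureteric lineage and distal nephron. At E18.5 Znrf3 was highest in ureteric tip-like nuclei at 643 CPM (610 to 677), 2.13 times (2.02 to 2.25) all other nuclei. It was 535 CPM in distal nephron precursors, 510 CPM in the loop of Henle, 471 CPM in early nephrons, 426 CPM in intercalated-like nuclei and 409 CPM in nephron progenitors, and lowest in endothelium-like nuclei at 117 CPM. At P3 the top of the order was flat: intercalated-like, early nephron-like, nephron progenitor-like, ureteric tip-like, collecting duct-like, loop of Henle-like and distal nephron precursor-like nuclei lay between 637 and 674 CPM, and no 2 neighbours in this order differed beyond counting error. Several epithelial units were lower than this group. Urothelium-like nuclei stood at 376 CPM, podocyte-like nuclei at 373 CPM, distal convoluted tubule-like nuclei at 295 CPM and proximal tubule-like nuclei at 265 CPM. A UMI of Znrf3 was found in 79.9% of ureteric tip-like nuclei at E18.5 (41.7% thinned), and in 26.2% of leukocyte-like nuclei at E18.5 and 37.4% at P3 (8.18% and 21.5% thinned), so low levels of Znrf3 outside epithelium are not separable from background.

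Rnf43 was highest at E18.5 in ureteric tip-like nuclei at 212 CPM (193 to 232; 470 UMIs in 662 nuclei) and collecting duct-like nuclei at 195 CPM (174 to 218), which did not differ beyond counting error. Urothelium-like nuclei followed at 119 CPM, distal nephron precursor-like nuclei at 87.4 CPM, intercalated-like nuclei at 84.5 CPM and loop of Henle-like nuclei at 69.2 CPM. Cluster 10 and the endothelium-like, mural-like, interstitium-like and other stromal units lay between 4.49 and 8.50 CPM, under the 13.1 CPM (5 UMIs) of the leukocyte-like nuclei.

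By P3 collecting duct-like nuclei led alone, at 515 CPM (473 to 560; 558 UMIs in 153 nuclei), 11.4 times (10.4 to 12.5) all other nuclei and 2.15 times (1.88 to 2.46) the ureteric tip-like level of 240 CPM. Distal nephron precursor-like nuclei had 195 CPM, with 371 CPM in the Sgcz and Prox1 cluster and 116 CPM in the Sim2 cluster, the reverse of the order of Lgr5 in the same clusters. Distal convoluted tubule-like nuclei had 26.8 CPM at E18.5 and 101 CPM at P3 (13 and 61 UMIs). The share of collecting duct-like nuclei with a UMI of Rnf43 was 37.9% at E18.5 (13.9% thinned) and 85.6% at P3 (34.0% thinned), with median depths of 3312 and 6283 UMIs, while the leukocyte-like shares were 3.12% and 5.05% (0.629% and 2.05% thinned).

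**Figure D3:**
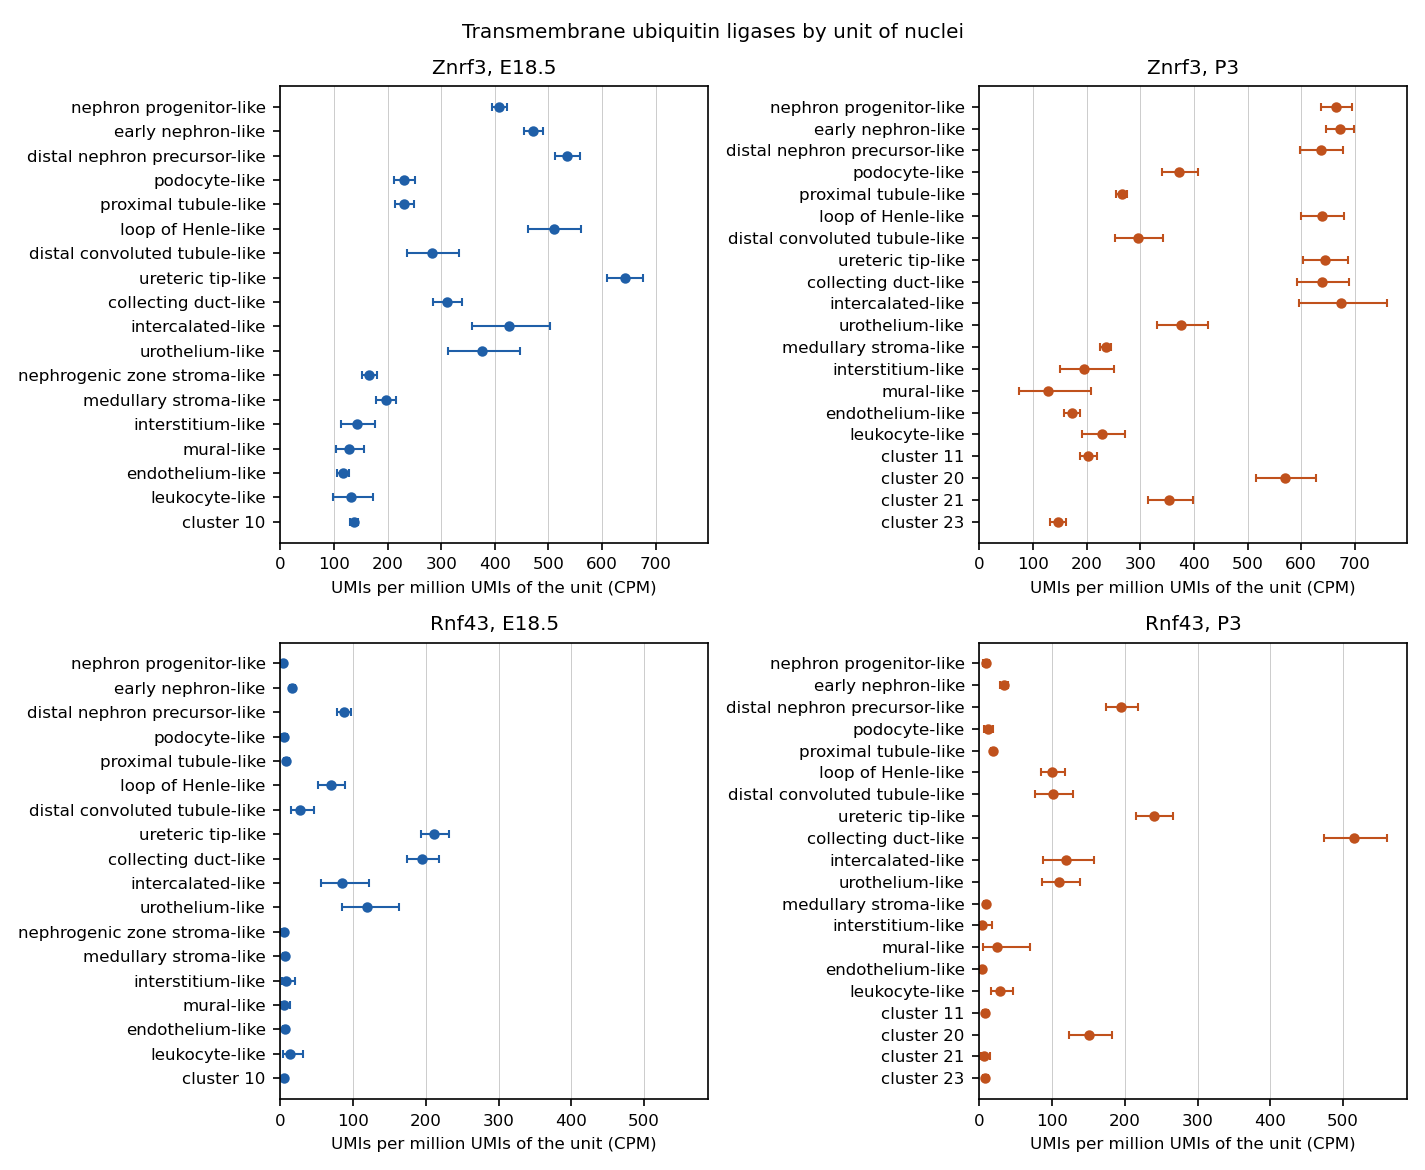
Levels of Znrf3 (upper panels) and Rnf43 (lower panels) in each unit at E18.5 (left) and P3 (right), in CPM, with 95% counting intervals as bars. Znrf3 peaked at 643 CPM in ureteric tip-like nuclei at E18.5 and lay between 637 and 674 CPM in 7 units at P3, above proximal tubule-like nuclei at 265 CPM, and Rnf43 was 195 CPM at E18.5 and 515 CPM at P3 in collecting duct-like nuclei.

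Concentration in 1 unit was common among the members but also among other genes. At E18.5, 3 of the 7 members measured (Rspo3, Lgr5 and Rnf43) were at least 5 times as high in their highest unit as in all other nuclei, a property shared by 17.0% of 16948 genes. At P3 the same held for 5 of 7 (Rspo1, Rspo3, Lgr5, Lgr6 and Rnf43), against 20.8% of 16789 genes. The P3 count depended on the clustering, and was 2 with 20 in place of 10 nearest neighbours. The unit that stood highest at P3 also changed for Rspo1, Rspo3 and Lgr5 with Leiden clusters and with 20 neighbours. With Leiden clusters it changed for Lgr4, Lgr6 and Znrf3 as well. Lgr4 and Znrf3 were the broad members, at 2.84 and 2.13 times at E18.5 and 2.28 and 1.84 times at P3 in their highest units.

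Within units named at both ages and holding at least 20 UMIs of the gene, Rspo1 and Rspo3 were mostly lower at P3, Znrf3 mostly higher, and Rnf43 higher in 7 of 14. Over all genes with at least 20 UMIs, 15.4% of the pairs of a gene and a unit were higher at P3 beyond counting error and 22.7% lower, a share that depends on the UMIs of each gene. Rspo1 was lower at P3 beyond counting error in 7 of 9 such units and higher in 0, with a median ratio of 0.365. Most of the 9, among them the medullary stroma-like unit that gives this median, are near the leukocyte-like level described above. Well above it at E18.5 were nephron progenitor-like (ratio 0.537), early nephron-like (0.911, 0.739 to 1.12) and interstitium-like nuclei (0.0404, from 46 and 1 UMIs). Rspo3 was lower in 7 of 10 and higher in 0, with a median of 0.547, but these units leave out those where it was highest, which carry no shared name. Znrf3 was higher in 11 of 16 and lower in 0, with a median of 1.31. The 11 include leukocyte-like nuclei, the reference for free RNA, at 131 and 228 CPM (ratio 1.74, 1.24 to 2.46). They also include endothelium-like nuclei, which lay under that reference at both ages, at 117 and 172 CPM. Rnf43 was lower in 0, with a median of 2.01. Over the 23 pairs of clusters of the 2 ages that share at least 2 leading genes, Rspo3 was lower in 7 of 14 with enough UMIs and higher in 3, namely in nephrogenic zone stroma-like nuclei beside cluster 11, medullary stroma-like nuclei beside cluster 21, and cluster 10 beside cluster 23 (1.67 times). In the same pairs Rspo1 was lower in 9 of 13 and higher in 0, Znrf3 higher in 16 of 23 and lower in 0, and Rnf43 higher in 9 of 17 and lower in 0. The share over all genes was not computed for these pairs, and some clusters recur among them. Some pairs also join unlike names, such as distal convoluted tubule-like nuclei at E18.5 with loop of Henle-like nuclei at P3.

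Receptors varied by unit. Lgr4 was higher in 7 of 16 units, with ratios up to 1.60 in distal nephron precursors, and lower in 2, early nephrons (0.943, 0.901 to 0.986) and proximal tubule (0.820, 0.777 to 0.866). The direction in early nephrons turned with the cluster, since the P3 cluster that shares leading genes with the E18.5 one was 2.02 times as high. Lgr5 was higher in 2 of 10 units, collecting duct-like and endothelium-like nuclei, and lower in 4. Both rises rested on few nuclei. Of the 48 UMIs in endothelium-like nuclei at P3, 14 came from 1 nucleus of the Sox17 cluster and 11 from 1 nucleus of the Flt1 cluster. The 41 UMIs in collecting duct-like nuclei at P3 lay in 16 of 153 nuclei, with 10 in 1 nucleus. In collecting duct-like nuclei 4 members were higher at P3 beyond counting error, as were 14.3% of all genes with at least 20 UMIs there: Rnf43 at 2.64 times (2.30 to 3.04), Znrf3 at 2.05 times (1.83 to 2.31), Lgr5 at 2.81 times (1.64 to 4.95) and Lgr4 at 1.51 times (1.28 to 1.78). The clusters differed in size and depth, with 485 nuclei and 9 of 10 collecting duct markers raised at E18.5 and 153 deeper nuclei and 7 of 10 at P3. In ureteric tip-like nuclei, the other ureteric unit, Znrf3 stood at 643 and 645 CPM (interval of the ratio 0.923 to 1.09) and Rnf43 at 212 and 240 CPM (0.982 to 1.30), so both intervals include 1. In distal nephron precursor-like nuclei Lgr4 and Rnf43 were higher at P3, at 1.60 and 2.23 times, and Lgr5 was lower, at 0.490 times. In the matched Sim2 clusters these ratios were 1.72 (1.58 to 1.87) for Lgr4, 1.32 (1.07 to 1.63) for Rnf43 and 0.686 for Lgr5.

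**Figure D4:**
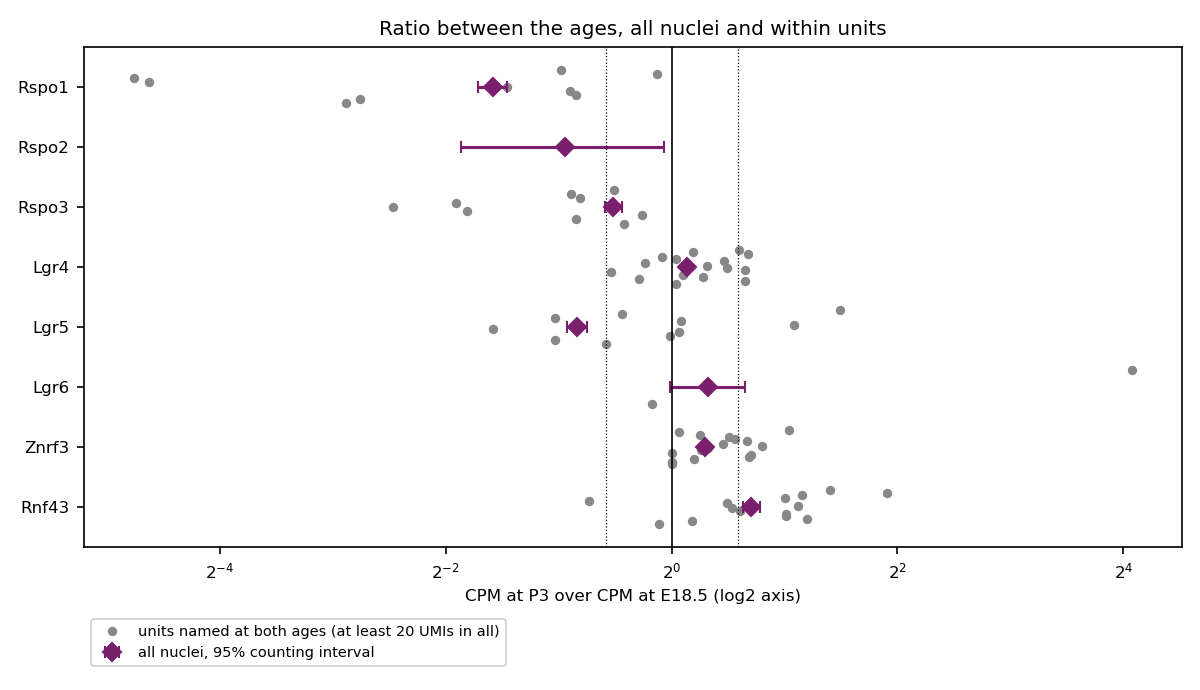
Ratio of the level at P3 to that at E18.5 on a log2 axis for each member; purple diamonds give the sum over all nuclei with its 95% counting interval, grey points the units named at both ages with at least 20 UMIs of the member, the solid line a ratio of 1 and the dotted lines 1.5-fold in either direction. Rspo3 in mural-like nuclei, with 0 UMIs at P3, is not drawn. Every grey point of Rspo1 and Rspo3 lies below 1 and every one of Znrf3 at or above 1, whereas those of Lgr4, Lgr5 and Rnf43 fall on both sides.

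The members were also compared by their pattern over clusters of at least 50 nuclei, 25 at E18.5 and 30 at P3. These include 7 and 4 clusters of mostly called doublets or low RNA that were left out above. Over the 28 pairs of members, the correlation of log2 levels had a median of 0.09 at E18.5 and 0.07 at P3. The ligases had the most alike patterns, with an r of 0.67 at E18.5 and 0.68 at P3, followed by Lgr4 with Znrf3 (0.54 and 0.61) and Lgr5 with Znrf3 (0.56 and 0.49). Rspo3 and Rnf43 were the most opposed, at −0.50 and −0.59. Without the 7 and 4 clusters, the medians were 0.09 and 0.05, the ligases had 0.72 and 0.65, and Rspo3 with Rnf43 −0.47 and −0.63. Clusters share libraries, free RNA and depth, and these correlations are descriptions.

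Genes outside the list with the most similar patterns over the same clusters were named by their mean correlation at both ages. Of the 21 so chosen, 13 were still among the 3 closest to their member without the clusters of doublets or low RNA. For Rspo1 they were Uncx (0.79), Vcan (0.79) and Cdh2 (0.77). For Rspo3 they were Tmem200a (0.83), Lhfp (0.78) and Gm10544 (0.77), the last a transcript that lies antisense over the Pcdha cluster. For Lgr4 they were Gm13944 (0.85), which lies antisense to Zfp385b, Epb41l5 (0.84) and Gm13561 (0.80), and for Lgr5 Thsd7b (0.72), Adamts16 (0.71) and the transcription factor Sim1 (0.71). Lgr6 was closest to Vcan (0.66), Kcnq5 (0.65) and Eya4 (0.63), on few UMIs. Znrf3 was closest to Gm20395 (0.85), antisense to Pax2, Plch1 (0.84) and Fbxo16 (0.83). Rnf43 had the closest neighbours of any member, with the epithelial transcription factors Grhl2 (0.93) and Ehf (0.91) among them.

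Within units, whether members tend to be found in the same nuclei, or apart, could not be settled at this depth. After thinning, 854 comparisons of a pair of members in a unit had at least 10 nuclei with the one member, and the share of these nuclei with the other member was set beside the share among nuclei without it. The intervals were apart in 3 comparisons, in 2 with more of the other member and in 1 with less. Each order of a pair counts as its own comparison. Intervals from few nuclei are wide, so only large differences could set them apart. The same share over other pairs of genes was not computed, so no conclusion is drawn from the count. Znrf3 was found in 10 of 12 progenitor-like nuclei with Lgr5 at E18.5 (83.3%, 51.6 to 97.9), against 30.2% of those without, and Lgr4 in 5 of 22 early nephron-like nuclei with Rspo3 (22.7%, 7.82 to 45.4), against 47.9%.

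The other genes of the Wnt pathway were taken from a list of 74, of which 60 reached 1 CPM. Past 1.5-fold, 6 were higher at P3 and 8 lower, and their median log2 ratio of 0.04 compares with −0.12 for all genes. Under TMM scaling, which moves the median of all genes to −0.01, 11 were higher and 6 lower. Among the 6 feedback targets, 4 were higher over all nuclei and 0 lower, with a median of 0.69. Over all genes, 10.2% were higher and 22.1% lower past the same fold. Feedback targets are genes that Wnt signaling switches on in many tissues and whose products mostly dampen it. Nkd1, an inhibitor of Dishevelled, went from 47.6 to 80.6 CPM (ratio 1.69), and its relative Nkd2 from 11.3 to 23.3 CPM (2.07). Tnfrsf19 went from 24.4 to 37.4 CPM (1.53) and the transcription factor Sp5 from 1.15 to 3.25 CPM (2.83). Axin2, a scaffold of the complex that degrades β-catenin, stood at 18.0 and 23.5 CPM (1.31), and Lef1, a DNA-binding partner of β-catenin, at 103 and 153 CPM (1.49). Medullary stroma-like nuclei, where Nkd1, Nkd2 and Lef1 were highest at E18.5, were 2.58% of nuclei at E18.5 and 14.2% at P3. Within that name all of them were lower at P3. Nkd1 was 289 and 216 CPM, Nkd2 83.4 and 64.6 CPM, and Lef1 555 and 411 CPM. In P3 cluster 21 Nkd1 and Nkd2 were higher, at 573 and 251 CPM, and Lef1 was 534 CPM. The P3 medullary stroma-like cluster also shared leading genes with E18.5 cluster 10, which held 14.0% of nuclei. In cluster 10 Nkd1 was 72.5 CPM and Nkd2 16.2 CPM, and Lef1 lay below the 196 CPM of podocyte-like nuclei. Set beside cluster 10, all of them were higher at P3. The direction and the change in share thus depended on which clusters were paired. How far the mix of types adds to the ratios over all nuclei was not tested.

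Rspo3 and the feedback targets were high together in some clusters and not in others. In the E18.5 medullary stroma-like cluster, with Rspo3 at 104 CPM, Lef1 was 555 CPM, Nkd1 289 CPM, Nkd2 83.4 CPM and Axin2 47.8 CPM. In P3 cluster 21, with Rspo3 at 325 CPM, Nkd1 was 573 CPM, Lef1 534 CPM, Nkd2 251 CPM, Tnfrsf19 174 CPM and Axin2 76.2 CPM. In the E18.5 nephrogenic zone stroma-like cluster, where Rspo3 was 235 CPM, Nkd1 was 34.5 CPM and Lef1 28.3 CPM, and in P3 cluster 11, with Rspo3 at 274 CPM, Nkd1 was 65.8 CPM and Lef1 79.0 CPM. The P3 medullary stroma-like cluster was the reverse, with Rspo3 at 18.8 CPM beside Lef1 at 411 CPM, Nkd1 at 216 CPM and Nkd2 at 64.6 CPM. Over clusters, the correlation of Rspo3 with Nkd2 was 0.58 at E18.5 and 0.75 at P3, and with Nkd1 0.54 and 0.64. It was lower for the other feedback targets: Axin2 (0.50 and 0.26), Lef1 (0.32 and 0.40), Tnfrsf19 (0.10 and 0.19) and Sp5 (0.05 and −0.16). In collecting duct-like nuclei, where Rnf43, Znrf3 and Lgr5 were higher at P3, Axin2 went from 14.1 CPM (8.93 to 21.1) to 68.3 CPM (53.6 to 85.8) and Tnfrsf19 from 13.5 CPM (8.44 to 20.4) to 169 CPM (145 to 195). These genes were picked after their values were seen. Sp5 was 4.62 CPM there at P3, and Nkd1, Nkd2 and Lef1 are not given for this unit. Whether the list as a whole was higher there was not tested.

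Few Wnt ligands and Frizzled receptors passed 1.5-fold between the ages. Of 11 Wnt ligands tested, 0 were higher and 1 lower (Wnt16, under 10 CPM). Of 14 Frizzled, Lrp and related receptors, Ror1 was higher (353 to 553 CPM, 1.57) and Fzd2 lower (47.2 to 18.2 CPM, 0.386). In the units where members were highest, 3 Wnt ligands and Fzd3 were picked out by CPM, which is not scaled by gene length and does not rank the genes against each other. Wnt5b was 108 CPM in E18.5 nephron progenitors, 167 CPM in nephrogenic zone stroma and 250 CPM in P3 cluster 11. Wnt4 was 367 CPM in P3 nephron progenitors and 241 CPM in cluster 21. In E18.5 nephron progenitors it lay below the 113 CPM of E18.5 early nephron-like nuclei. Wnt9b, which the ureteric bud secretes to induce nephrons, was 81.1 CPM in the E18.5 ureteric tip and 141 CPM in the P3 collecting duct. Fzd3 was 162 and 205 CPM in E18.5 and P3 nephron progenitors.

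Secreted and membrane inhibitors included 4 lower genes among 12 tested and 1 higher, beside 22.1% lower and 10.2% higher over all genes. Dkk1, which blocks the Lrp co-receptors, went from 15.9 to 3.14 CPM (0.198) and Sostdc1 from 43.4 to 19.4 CPM (0.446), while Wif1 and Sost were lower at levels under 10 CPM and Notum was higher, also under 10 CPM. In the nuclear and destruction complex list, 2 of 17 were lower, Ctnnb1, which encodes β-catenin (215 to 136 CPM, 0.634), and Gsk3a, a kinase of the destruction complex (25.6 to 16.6 CPM, 0.647), and 0 were higher. Rspo4, the remaining R-spondin, was held to 8 UMIs at E18.5 and 6 at P3 and was not tested.

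**Figure D5:**
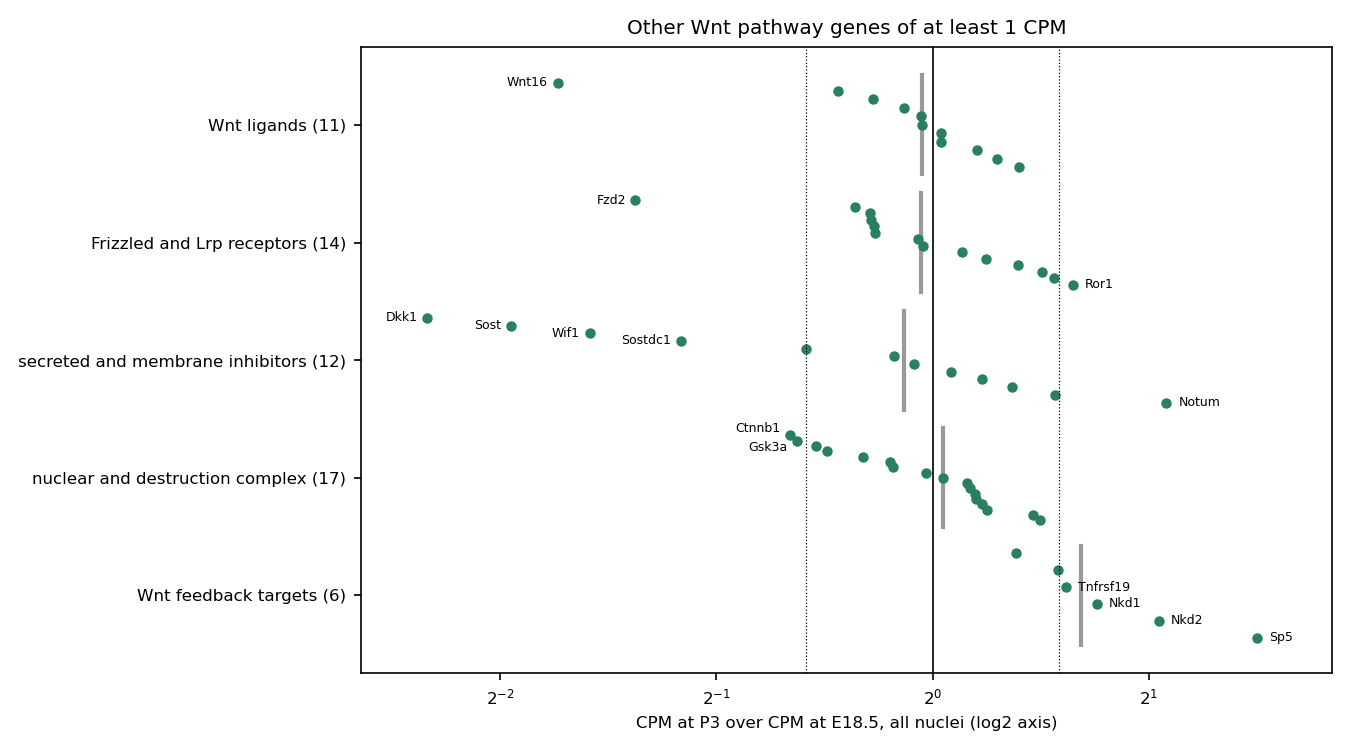
Ratio of the level at P3 to that at E18.5 over all nuclei, on a log2 axis, for the 60 other Wnt pathway genes of at least 1 CPM, in 5 lists whose number of genes is in parentheses; each point is a gene, grey bars are list medians, the solid line is a ratio of 1 and dotted lines mark 1.5-fold. Genes past 1.5-fold are named. The 6 feedback targets lie to the right of 1, with 4 past the dotted line, and Dkk1 at 0.198 lies farthest to the left.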

How the data were processed

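Nuclei of pooled mouse kidneys at E18.5 and P3 were sequenced with 10x Genomics Chromium 3' chemistry, 1 library per age, with groups taken from the age labels. The authors deposited raw UMI counts per gene and barcode, already called from empty droplets. The submitters' processing notes name Cell Ranger 5.0.1 and mm10 for both libraries, while the matrix headers give 7.0.0 for E18.5 and 5.0.1 for P3; whether intronic reads were counted is not given in the sources used here. The matrices held 21600 and 12216 barcodes.

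Barcodes whose log UMIs or genes lay over 3 median absolute deviations under the median, or whose mitochondrial share lay as far above it (with a minimum deviation of 0.5 percent), were left out. Scrublet, as in scanpy 1.11.5 and with an expected doublet rate of 0.1, marked 16.4% and 16.8% of nuclei as doublets, which were kept. The nuclei were clustered per library without the members and the Wnt list by Walktrap (scran 1.30.0, igraph 2.1.4; 2000 variable genes, 50 principal components, 10 neighbours). A marker counted as raised in a cluster with at least 10 UMIs and at least 2 times the level of other nuclei, 10 CPM added to each. The class with the highest share of its markers raised, and at least 3 of them, named the cluster. Ties went to the class with more markers among the 10 leading genes. Clusters that stayed tied, or in which another class had more markers among the 10 leading genes, were left unnamed. Clusters with over 50% called doublets, led by technical genes, of low RNA or under 30 nuclei were not compared. This naming rule was set after the clusters had been seen.

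UMIs were summed per unit and given as CPM. Levels carry exact Poisson intervals, shares exact binomial (Clopper-Pearson) intervals and ratios exact conditional binomial intervals (scipy 1.17.1, Python 3.11.15), all at 95% and for counting error only. With 1 library per age there was no replicate check and no p-value. A fold of 1.5 between the ages, or of 5 between a unit and all other nuclei, was used to count genes of at least 1 CPM. No level was scaled by gene length. The Wnt and Frizzled genes set beside members were picked by unscaled CPM, which is no ranking of the genes. Nuclei were thinned to 1000 UMIs for shares. The levels and ratios were tested on simulated counts. edgeR 4.0.16 (TMM) and DESeq2 1.42.0 (median of ratios) gave scaling factors only.

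The text names all 8 members, all feedback targets and Rspo4, the genes of the other Wnt lists that passed 1.5-fold with at least 10 CPM at one age, the Wnt ligand or Frizzled gene highest in a member's leading unit, and the 3 genes of at least 5 CPM in both libraries most correlated with each member of at least 100 UMIs in each, over log2(CPM + 1) in clusters of at least 50 nuclei. Wnt16, Wif1, Sost and Notum are below that level and were named after their values were seen, as were the genes set beside members in single clusters. The members and gene lists were chosen with earlier results of these data known. Spans come from GENCODE M21, in which 32158 of 32285 gene identifiers were found, and start windows from RefSeq on GRCm38.p6. Alternatives are named in the closing section. Some genes that the naming rules select are not reported here.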

Additional observations from a re-analysis of the deposited data

Results flagged for a closer look

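Lgr5 moved in opposite directions with age in 2 tubular units. In collecting duct-like nuclei it was 13.5 CPM (22 UMIs) at E18.5 and 37.9 CPM (41 UMIs) at P3, a ratio of 2.81 (1.64 to 4.95). The 41 UMIs lay in 16 of 153 nuclei, with 10 in 1 nucleus, a clumping that the interval does not cover. In loop of Henle-like nuclei it was 46.1 CPM (38 UMIs) and 15.4 CPM (23 UMIs), a ratio of 0.334 (0.190 to 0.574). The intervals cover counting error only, each age is 1 library, and the difference between the units was not tested.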

How the results depend on the processing

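Of the alternative values for counts of genes, 29 stayed within 1.5 times the value reported and 5 did not. Members at least 5-fold in their highest unit at P3 numbered 2 with 20 neighbours, where the highest unit of Rspo3 was medullary stroma-like at 3.70-fold. Members higher at P3 past 1.5-fold numbered 2 when every shared unit weighed the same, an alternative chosen after seeing the data, with Lgr6 at 3.21. The members lower numbered 2 as before but were Rspo1 and Rspo3, at 0.309, while Lgr5 at 0.715 was no longer past 1.5-fold. Units without a shared name, among them those where Rspo3 was highest, do not enter this alternative. Wnt list genes higher at P3 numbered 11 with TMM scaling and 10 among all with 1 UMI in each library, and those lower numbered 4 at a minimum of 10 CPM, where fewer genes are tested. The cause of the other shifts was not tested. For levels and ratios of single members, 63 alternative values lay within the counting interval of the reported ratio, 62 outside it, and 1 was reversed: Rspo2, at 0.521, was 1.07 with units weighed equally. Over all alternatives Rspo1 ranged from 0.320 to 0.395 and Rnf43 from 1.56 to 1.78. With Leiden clusters no unit was named early nephron-like. Lgr4 was then highest in proximal tubule-like nuclei at both ages and Znrf3 at E18.5 in distal nephron precursor-like nuclei, and at P3 Lgr5 was highest in distal convoluted tubule-like nuclei at 8.77-fold, Rspo3 in mural-like nuclei at 11.5-fold and Rspo1, Lgr6 and Znrf3 in an unnamed cluster. Rnf43 at 9.16-fold then exceeded Lgr5 at 8.01-fold at E18.5. With 20 neighbours Lgr5 at P3 was highest in ureteric tip-like nuclei at 3.74-fold, Rspo1 at P3 in early nephron-like nuclei at 4.85-fold and Lgr6 at E18.5 in early nephron-like nuclei. Leaving the clusters of doublets or low RNA out of the correlations between members, also chosen after seeing the data, moved 5 of 56 values by over 0.1. No paired analysis was possible because each age has 1 library and no test was made. Leaving out a replicate was likewise not possible. The precision of Rspo2 and Lgr6 is limited by 17 to 164 UMIs per library.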
